A study of Mus musculus with 9 samples.

Results

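The genes described here are 8 that carry out or feed pyroptosis: the sensor Nlrp3, the adaptor Pycard, the caspases Casp1, Casp4 and Casp8, the pore protein Gsdmd, and the cytokines Il18 and Il1b. They were chosen by name with earlier results of these data known, and all 8 were found among the 30350 genes of the deposited table. The same holds for the gene lists used below. Counts of members or listed genes beside shares of all genes are therefore descriptions, not independent support. RNA came from AML12, a mouse hepatocyte line that descends from the liver of a mouse carrying a human TGF alpha transgene, with 3 libraries in each of 3 groups. NC cells were kept in DMEM/F12 medium, FFA cells in the same medium with free fatty acids, and FFA-SIN cells in medium with free fatty acids and sinomenine, a plant alkaloid. By the series' design text, the sinomenine cultures had fatty acids alone for 24 hours and then fatty acids with 200 µM sinomenine for 48 hours. The sources used here name neither the fatty acids nor the length of the NC and FFA cultures, so FFA against NC and FFA-SIN against FFA each also hold any difference in culture time. No group had sinomenine without fatty acids. Nothing in the labels says that the libraries came from separate cultures, so p-values measure only how these libraries vary, which may be technical variation.

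An inflammasome is a protein complex in which a sensor such as NLRP3 or a NAIP protein with NLRC4 recruits, often through the adaptor ASC (the product of Pycard), pro-caspase-1 and activates it. Active caspase-1 cuts the precursors of interleukin-1 beta and interleukin-18 and cuts gasdermin D, whose freed amino-terminal part forms pores in the plasma membrane. Mouse caspase-11, the product of Casp4, binds bacterial lipopolysaccharide inside the cell and cuts gasdermin D without that complex. Caspase-8 starts death receptor apoptosis, holds necroptosis in check and can also cut gasdermin D. In fatty liver disease these genes are mostly studied in macrophages and in injured hepatocytes. All of these steps are controlled in large part by protein cleavage, which transcript levels do not show.

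Of the 8 genes, Gsdmd stood far above the rest, Casp8, Casp1, Casp4 and Il18 were at low to moderate levels, and Nlrp3, Pycard and Il1b were close to 0 in every library. Levels are FPKM, fragments scaled to gene length and depth, so genes can be compared with each other. Gsdmd ranked 224 of 30350 genes by its mean in NC (0.738% of genes at or above it), 292 in FFA and 386 in FFA-SIN. Casp8 was next, at rank 3208 in NC. Casp1, Casp4 and Il18 ranked 7616, 7651 and 7420 in NC, and their NC libraries overlapped, so that their order there did not exceed the spread. In FFA, Casp1 (4.53 to 4.66 FPKM) lay above Casp4 (3.92 to 4.05 FPKM), and Il18 (3.08 to 4.18 FPKM) overlapped Casp4. In FFA-SIN the libraries of Casp1, Casp4 and Il18 overlapped again. The read steps in the table fitted a Casp1 gene model of 3136 bases, against 1497 bases in the GENCODE vM21 annotation, and a shorter model would give higher Casp1 levels in all groups alike.

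**Figure D1:**
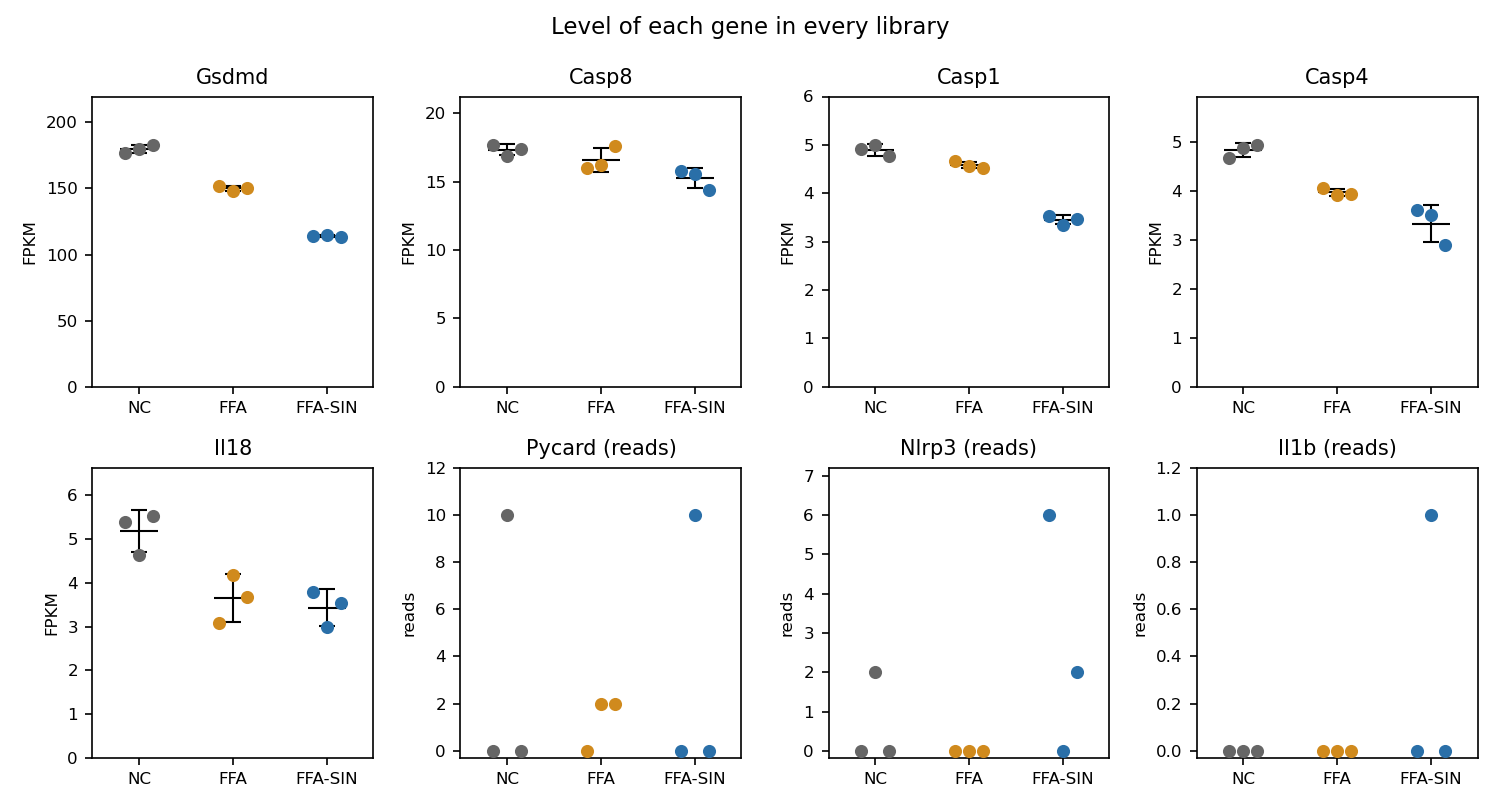
Each point is a library, in FPKM for the 5 genes above the filter (bars show mean and SD, n = 3) and in whole reads for Pycard, Nlrp3 and Il1b, with the groups on the horizontal axis. Gsdmd runs from 183 down to 113 FPKM with no overlap between groups, while Il1b has 1 read in all 9 libraries.

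The regulatory sequence of the 2 inflammatory caspase genes above the filter is shown because they are neighbours on chromosome 9 and both were lower in FFA-SIN. The stretches run from 250 bases before to 50 bases after the gene start of RefSeq (build GRCm38.p6, plus strand), 5′ to 3′, and capitals mark matches to the binding motif of NF-kB. Casp1 lies at chr9:5298267-5298566 and Casp4 at chr9:5308599-5308898.
Casp1: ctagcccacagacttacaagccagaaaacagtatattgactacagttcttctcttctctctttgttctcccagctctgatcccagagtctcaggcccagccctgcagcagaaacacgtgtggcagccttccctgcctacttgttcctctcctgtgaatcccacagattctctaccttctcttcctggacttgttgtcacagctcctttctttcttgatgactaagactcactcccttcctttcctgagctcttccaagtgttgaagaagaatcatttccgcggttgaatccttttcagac
Casp4: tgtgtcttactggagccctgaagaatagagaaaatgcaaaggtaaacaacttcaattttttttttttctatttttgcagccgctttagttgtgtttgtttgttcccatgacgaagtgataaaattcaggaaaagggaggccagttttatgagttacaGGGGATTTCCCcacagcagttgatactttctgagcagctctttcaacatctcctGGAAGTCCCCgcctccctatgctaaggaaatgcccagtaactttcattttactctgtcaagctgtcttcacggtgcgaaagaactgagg
Motifs were sought on both strands: the NF-kB motif, the interferon response motif (GAAA repeated after any 2 bases), the gamma-activated motif TTCNNNGAA and the TATA box TATAAA. The Casp4 stretch held 3 matches to the NF-kB motif, 2 of which overlap in the first capital run, and none of the other motifs. The RefSeq set held 2 entries for Casp4, of which only the first was examined, and none for Gsdmd. The Casp1 stretch held none of these letters. Among 32851 RefSeq promoter stretches of the same length, 8.46% held the NF-kB motif, 3.44% the interferon response motif, 8.3% the gamma-activated motif and 13.6% the TATA box. The Casp8 stretch held none of the 4 motifs, and that of Il18 held the TATA box letters once, 175 bases before the start on the opposite strand. A match is a match of letters and not evidence of binding.

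Nlrp3, Pycard and Il1b were near 0 in all groups. Nlrp3, whose product senses ion loss, crystals and other damage signals, had 10 reads in all 9 libraries together, and 6 libraries had none. NC replicate 2 had 2 reads (0.00838 FPKM), FFA-SIN replicate 1 had 6 (0.0238 FPKM) and FFA-SIN replicate 3 had 2 (0.00691 FPKM). With 0 reads in each FFA library, a level of up to 0.0109 to 0.0171 FPKM (3 reads, depending on depth) could have gone unseen, counting error only. That bound takes reads as independent and would be higher if both ends of a fragment count. Pycard, whose product joins sensors to caspase-1, had 24 reads in all, at most 0.0454 FPKM in any library. Of these, 10 fell in NC replicate 2 and 10 in FFA-SIN replicate 2, with 2 each in FFA replicates 2 and 3. Its exons overlap those of an uncharacterised gene on the opposite strand in the annotation, and the sources used here do not give the strand setting of the counting. Il1b, the precursor of interleukin-1 beta, had 1 read in the whole data set, in FFA-SIN replicate 2 (0.00905 FPKM), and its exons overlap those of an annotated antisense gene, so the strand limit holds for it too. No difference between groups was detectable for these 3 genes at this depth (exact two-sided permutation test over libraries, p = 0.4 to 1 for Nlrp3 and p = 1 in every comparison for Pycard and Il1b, where 0.1 is the smallest p that 3 against 3 can give). The outcome is fixed in advance where at most 1 library of a comparison has reads. That was so for Il1b in every comparison and for Nlrp3 in FFA against NC, so these tests cannot decide.

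FFA against NC sets cells given fatty acids beside cells kept in medium alone. A fall or rise with fatty acids below means a difference in this comparison, any difference in culture time included. Gsdmd, Casp4 and Il18 were lower in FFA, and Casp1 and Casp8 did not pass the test. In all, 3 of the 5 tested members fell and 0 rose, while 18.4% of all 11659 tested genes fell and 37.5% changed in either direction. Counting libraries that do not overlap instead, 4 members lay lower and 0 higher in FFA, as did 24.1% and 24.8% of all tested genes. Tests are limma on log2(FPKM + 1) with Benjamini-Hochberg adjustment over all tested genes, at a threshold of 0.05, and log2 fold changes are given ± SE on that scale, which understates the change of low genes. The median log2 fold change of all tested genes was 0.00 here, -0.01 for FFA-SIN against FFA and -0.01 for FFA-SIN against NC.

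Gsdmd was 177, 180 and 183 FPKM in the NC libraries, 152, 148 and 150 FPKM in the FFA libraries, and 114, 115 and 113 FPKM in the FFA-SIN libraries. The groups did not overlap, and libraries of a group differed by a few FPKM. Its mean fell from 180 ± 2.78 to 150 ± 2.02 FPKM (SD, n = 3) with fatty acids, to 83.3% of NC (log2 fold change -0.26 ± 0.02, limma adjusted p = 1.03e-05). These values rest on 15581 to 27980 reads per library.

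Casp4 was 4.68, 4.88 and 4.94 FPKM in NC, 4.05, 3.92 and 3.94 FPKM in FFA, and 3.6, 3.5 and 2.89 FPKM in FFA-SIN. The groups did not overlap, and FFA-SIN replicate 3 was the lowest library. From NC to FFA the mean fell from 4.83 ± 0.135 to 3.97 ± 0.0699 FPKM, to 82.1% of NC (log2 fold change -0.23 ± 0.06, limma adjusted p = 0.0132).

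Il18, the precursor of interleukin-18, was 5.38, 4.63 and 5.52 FPKM in NC, 3.08, 4.18 and 3.68 FPKM in FFA, and 3.79, 2.98 and 3.53 FPKM in FFA-SIN. Both fatty acid groups lay below NC and overlapped each other. The fall from NC to FFA was from 5.18 ± 0.478 to 3.65 ± 0.553 FPKM, to 70.4% of NC (log2 fold change -0.41 ± 0.10, limma adjusted p = 0.00986). Il18 had 137 to 367 reads per library, the fewest of the tested members, and the widest spread relative to its level.

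Casp1 was 4.92, 5 and 4.76 FPKM in NC, 4.66, 4.57 and 4.53 FPKM in FFA, and 3.53, 3.35 and 3.47 FPKM in FFA-SIN. NC and FFA stood close together without overlap, at 4.89 ± 0.123 and 4.58 ± 0.067 FPKM, and the difference did not pass the test (log2 fold change -0.08 with a 95% interval of -0.15 to -0.01, limma adjusted p = 0.0841). It did pass with each library rescaled to the same sum of FPKM (adjusted p = 0.0448). Casp8 was 17.7, 16.9 and 17.4 FPKM in NC, 16, 16.2 and 17.6 FPKM in FFA, and 15.8, 15.6 and 14.4 FPKM in FFA-SIN. NC and FFA overlapped through FFA replicate 3 (log2 fold change -0.06 with a 95% interval of -0.16 to 0.04, limma adjusted p = 0.299).

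FFA-SIN against FFA sets cells given sinomenine with fatty acids beside cells given fatty acids alone. Gsdmd, Casp1 and Casp4 were lower with sinomenine. Again 3 of 5 tested members fell and 0 rose, against 17.3% of all tested genes lower and 31.2% changed in either direction. Without overlap, 4 members lay lower, as did 25.1% of all tested genes. Gsdmd fell from 150 ± 2.02 to 114 ± 1.16 FPKM (log2 fold change -0.39 ± 0.02, limma adjusted p = 7.81e-07), a ratio of 0.76. Casp1 fell from 4.58 ± 0.067 to 3.45 ± 0.0912 FPKM (log2 fold change -0.33 ± 0.03, limma adjusted p = 5.48e-05), a ratio of 0.753. In both genes every FFA-SIN library lay below every FFA library.

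The fall of Casp4 from 3.97 ± 0.0699 to 3.33 ± 0.381 FPKM was near the threshold (log2 fold change -0.20 ± 0.06, limma adjusted p = 0.0271). It did not pass without FFA replicate 1, 2 or 3 (adjusted p = 0.0759, 0.0557 and 0.0623), with only the libraries of both groups in the fit (0.0555) or with no filter on low values (0.0855). Without FFA-SIN replicate 3, its lowest library, the log2 fold change was -0.13 (adjusted p = 0.0335). Casp8 did not pass (16.6 ± 0.857 against 15.3 ± 0.77 FPKM, log2 fold change -0.11 with a 95% interval of -0.21 to -0.01, limma adjusted p = 0.0878), although its libraries did not overlap. Il18 gave 3.65 ± 0.553 FPKM in FFA and 3.43 ± 0.411 FPKM in FFA-SIN (log2 fold change -0.07 with a 95% interval of -0.29 to 0.16, limma adjusted p = 0.665). That interval holds differences in both directions, so no direction could be called.

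**Figure D2:**
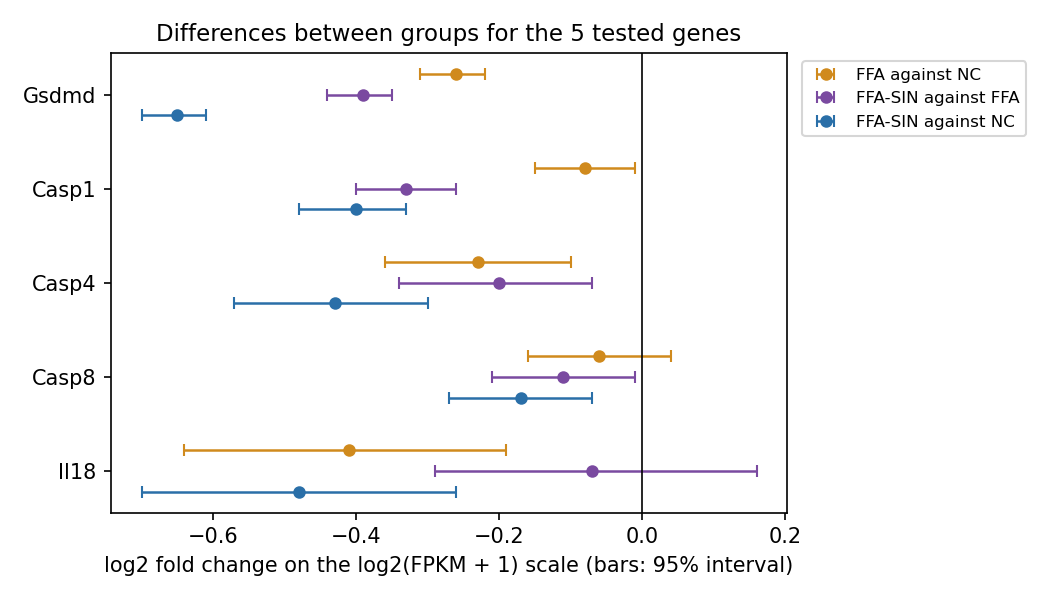
Points are log2 fold changes on the log2(FPKM + 1) scale for the 5 tested genes in the 3 comparisons, and bars are 95% intervals. All points lie below 0, from -0.65 for Gsdmd to -0.06 for Casp8, and the intervals of Casp8 in FFA against NC and of Il18 in FFA-SIN against FFA include 0.

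FFA-SIN against NC holds both treatments. All 5 tested members were lower in FFA-SIN, beside 26.5% of all tested genes lower, 24.7% higher and 51.3% changed in either direction. Gsdmd reached 63.4% of its NC mean (log2 fold change -0.65 ± 0.02, limma adjusted p = 8.62e-09). Il18 reached 66.3% (-0.48 ± 0.10, adjusted p = 0.00302), Casp4 68.9% (-0.43 ± 0.06, adjusted p = 0.000228) and Casp1 70.5% (-0.40 ± 0.03, adjusted p = 5.56e-06). Casp8 had the smallest fall of the tested members, to 88.1% of NC (-0.17 ± 0.04, adjusted p = 0.00901). FFA-SIN libraries lay below all NC libraries for each of the 5 genes, as they did for 31% of all tested genes, while 29.1% lay above without overlap. The comparisons share groups of libraries: FFA enters the first as treatment and the second as reference, so the pair of steps are not independent. In bulk RNA, fewer cells with a transcript and less of it per cell cannot be told apart.

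**Figure D3:**
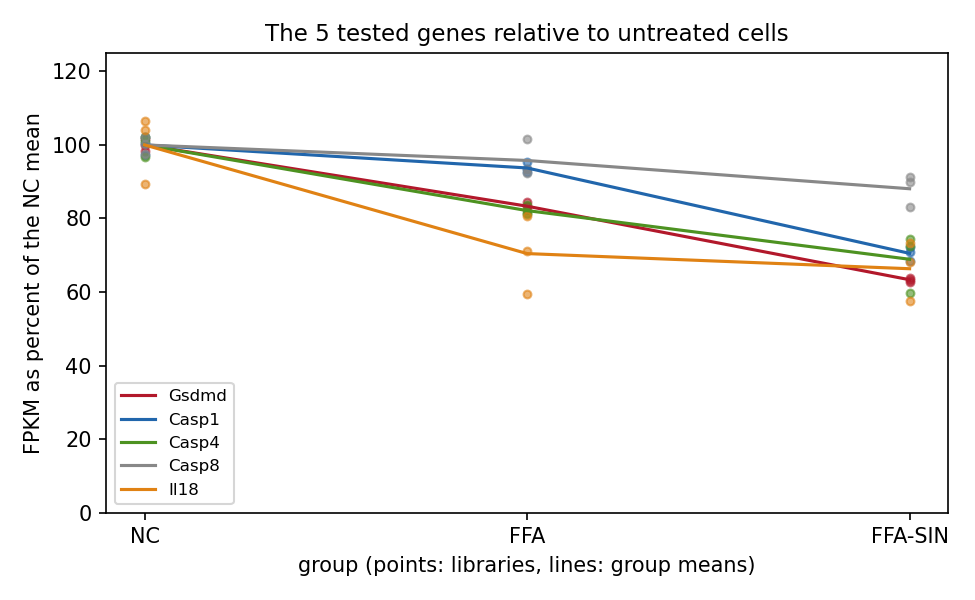
FPKM of the 5 tested genes as a percentage of the NC mean, with points for libraries and lines through group means. Gsdmd steps to 83.3% and then 63.4%, Casp1 stays at 93.7% in FFA and then stands at 70.5%, and Il18 is at 70.4% and 66.3%.

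The wider family was led by Gsdmd. Of 10 other gasdermin or membrane rupture genes listed, 9 were in the table and 3 passed the filter: Gsdma, Gsdme and Ninj1. Gsdma, a skin and gut gasdermin, was 4.2, 3.9 and 4.03 FPKM in NC, 1.47, 1.41 and 1.44 FPKM in FFA, and 0.648, 0.602 and 0.524 FPKM in FFA-SIN. It fell at both steps (log2 fold change -1.05 ± 0.05, limma adjusted p = 4.46e-07, then -0.62 ± 0.05, adjusted p = 1.36e-05), to a ratio of 0.146 between FFA-SIN and NC. Every FFA-SIN library of Gsdma lay under the filter level of 1 FPKM. Gsdme, a gasdermin linked to apoptosis, was low (1.51 FPKM in NC, 1.34 in FFA and 1.13 in FFA-SIN) and fell in FFA-SIN against NC (log2 fold change -0.24 ± 0.05, limma adjusted p = 0.00302). Ninj1, which tears the membrane after the pores form, moved the other way at the second step: it fell from 78.6 to 71 FPKM with fatty acids (adjusted p = 0.00241) and rose to 81.8 FPKM with sinomenine (log2 fold change 0.20 ± 0.03, limma adjusted p = 0.000402).

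Sensors other than Nlrp3 were expressed. Of 13 sensor genes listed, Nlrp3 included, 12 were in the table and 8 passed the filter, of which 4 fell and 1 rose in FFA against NC (median log2 fold change -0.11), 7 fell and 0 rose in FFA-SIN against FFA (-0.36), and 6 fell and 0 rose in FFA-SIN against NC (-0.55). In the same order, 18.4%, 17.3% and 26.5% of all tested genes fell, and 37.5%, 31.2% and 51.3% changed in either direction. The rise in FFA was that of Nlrp6, a gut epithelial sensor, from 1.15 to 1.55 FPKM (log2 fold change 0.24 ± 0.08, limma adjusted p = 0.0344), a call lost without NC replicate 2 or 3 or FFA replicate 2 or 3, with no filter, with only both groups in the fit and under a replicate block (adjusted p up to 0.112). The fall of Nlrp6 in FFA-SIN against FFA (limma adjusted p = 0.0281) was lost in 6 of 17 alternatives (adjusted p up to 0.0972). The NAIP proteins bind bacterial flagellin or secretion system parts and act through NLRC4. Naip1 went from 10.9 ± 0.522 FPKM in NC to 6.36 ± 0.4 in FFA and 4.42 ± 0.0644 in FFA-SIN, falling at both steps (log2 fold change -0.70 ± 0.05, limma adjusted p = 4.45e-06, then -0.44 ± 0.05, adjusted p = 8.46e-05). Naip6 went from 9.17 to 7.16 and 4.55 FPKM, and Naip5 from 5.34 to 4.22 and 2.5 FPKM, and both passed at both steps (largest adjusted p = 0.00451). The Naip genes are close copies whose reads may be shared, so their separate levels, and their count as separate falls, are uncertain. Naip2 was 16.3, 15.9 and 13 FPKM in the 3 groups and fell in FFA-SIN against FFA (adjusted p = 0.000421), while their partner Nlrc4 was 4.16, 4.05 and 4.04 FPKM and passed in no comparison (intervals of the log2 fold changes within -0.16 to 0.13). Nlrp10, an NLR protein that lacks the ligand-binding repeats, fell from 14.4 to 12.5 and 7.88 FPKM (log2 fold change -0.60 ± 0.04 with sinomenine, limma adjusted p = 3.13e-06). The DNA sensor Aim2, which needs ASC to reach caspase-1, was 12.3, 12.6 and 11.1 FPKM and fell in FFA-SIN against FFA (log2 fold change -0.16 ± 0.04, limma adjusted p = 0.00629).

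**Figure D4:**
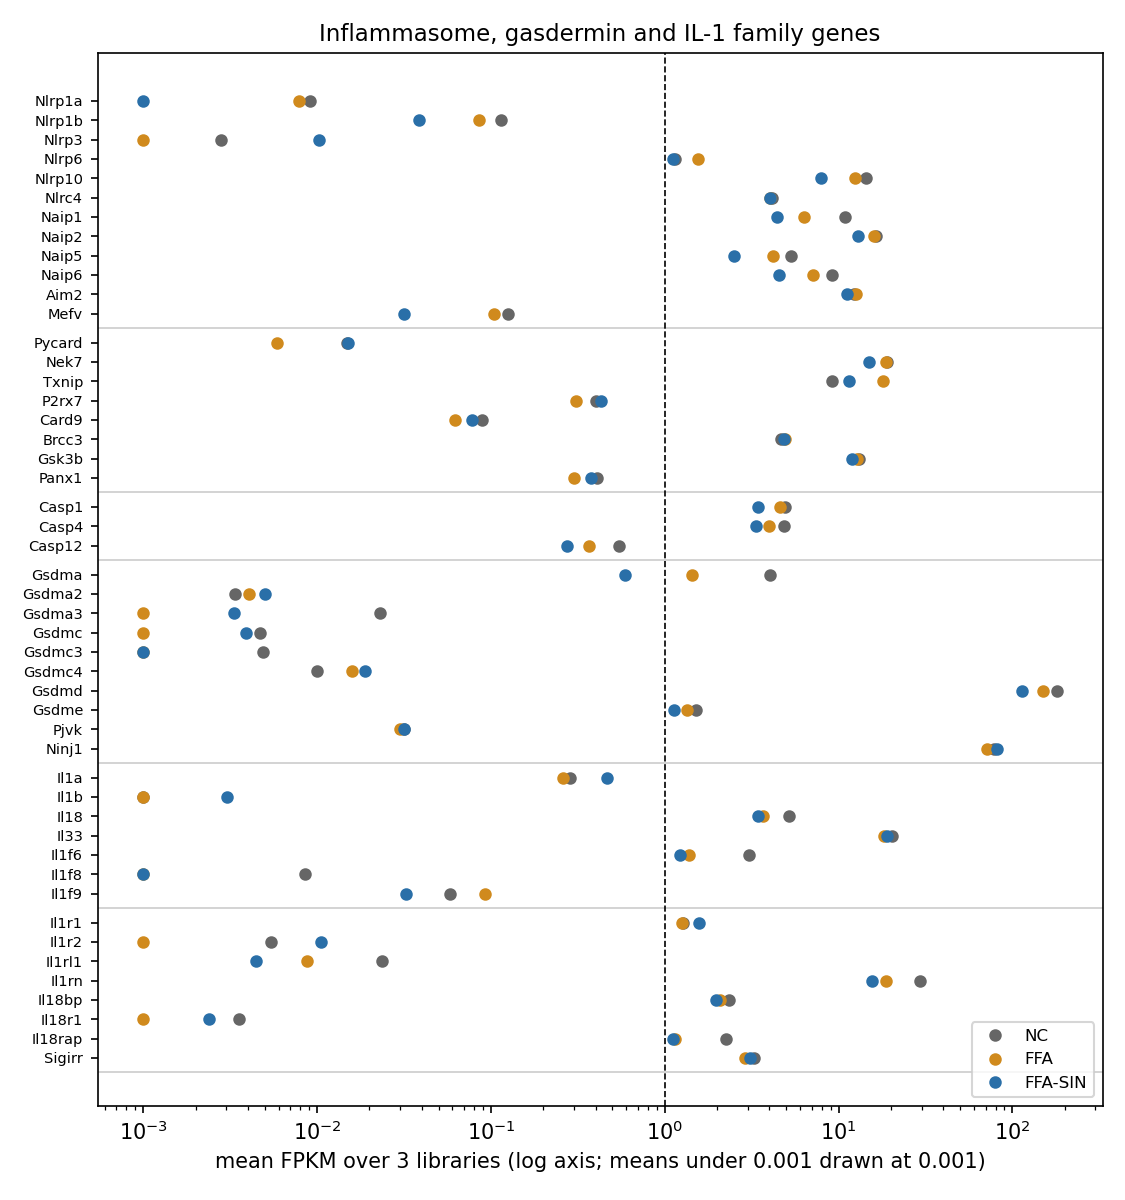
Group means in FPKM (log axis, n = 3 libraries) of sensors, NLRP3 partners, inflammatory caspases, gasdermins, IL-1 family cytokines and their receptors, with the filter at 1 FPKM as a dashed line and means too low for the axis drawn at its left end. Nlrp3, Pycard and Il1b lie under 0.1 FPKM, the Naip genes and Aim2 lie above 1 FPKM, and Gsdmd lies above 100 FPKM.

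Among the partners of NLRP3, Txnip and Nek7 differed between groups. Of 8 genes of that list, 4 passed the filter, of which 1 rose and 0 fell in FFA against NC, and 0 rose and 2 fell in FFA-SIN against FFA. Over all tested genes, 37.5% and 31.2% changed in these comparisons. Txnip, whose product binds thioredoxin and has been reported to bind NLRP3, was 9.19, 8.77 and 9.42 FPKM in NC, 18.5, 18.3 and 17.6 FPKM in FFA, and 11.1, 11.5 and 11.7 FPKM in FFA-SIN. It rose with fatty acids (log2 fold change 0.92 ± 0.03, limma adjusted p = 1.2e-07) and fell with sinomenine (-0.62 ± 0.03, adjusted p = 1.53e-06), ending above NC (0.30 ± 0.03, adjusted p = 7.78e-05). Nek7, a kinase that NLRP3 needs to assemble, fell from 18.8 FPKM in FFA to 15 FPKM in FFA-SIN (log2 fold change -0.31 ± 0.02, limma adjusted p = 1.6e-05).

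In the interleukin-1 family, genes other than Il18 also were lower after fatty acids. Of 10 cytokine symbols listed, 7 were in the table and 3 passed the filter, and these 3, Il18 included, fell in FFA against NC while 0 changed in FFA-SIN against FFA. Beside them, 18.4% of all tested genes fell in FFA against NC, and 37.5% and 31.2% changed in the 2 comparisons. Il33, a nuclear alarmin, was 20.4 FPKM in NC, 18.2 in FFA and 18.9 in FFA-SIN (FFA against NC, log2 fold change -0.16 ± 0.03, limma adjusted p = 0.00131). Il1f6, the older symbol for interleukin-36 alpha, fell from 3.06 to 1.38 FPKM (-0.77 ± 0.11, adjusted p = 0.000624). Il1rn, the antagonist of the interleukin-1 receptor, was 28.9, 30 and 28.7 FPKM in NC, 19.1, 18.5 and 18.8 FPKM in FFA, and 15.6, 15.7 and 15.4 FPKM in FFA-SIN. It fell at both steps (log2 fold change -0.61 ± 0.02, limma adjusted p = 1.57e-07, then -0.26 ± 0.02, adjusted p = 3.47e-05). Il18rap, a chain of the interleukin-18 receptor, fell from 2.24 to 1.14 FPKM with fatty acids (adjusted p = 5.73e-05). Il18r1, another interleukin-18 receptor gene, was at most 0.0106 FPKM in any library. Il18bp, which neutralises interleukin-18, was 2.35, 2.07 and 1.96 FPKM and fell in FFA-SIN against NC (adjusted p = 0.00362). The receptor gene Il1r1 went the other way, from 1.26 FPKM in FFA to 1.58 FPKM in FFA-SIN (limma adjusted p = 0.045). That call was lost in 14 of 17 alternatives.

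Some genes of the caspase-8 complex were lower in FFA-SIN than in NC. Of 11 genes of the caspase-8 and necroptosis list, Casp8 included, 9 passed the filter, of which 1 rose and 3 fell in FFA against NC, and 0 rose and 1 fell in FFA-SIN against FFA (median log2 fold changes -0.06 and -0.02). In FFA-SIN against NC 0 rose and 5 fell (median -0.13): Casp8, Birc3, Cflar, Cyld and the adaptor Fadd, the last from 3.85 to 3.43 FPKM (adjusted p = 0.046). Among all tested genes, 37.5%, 31.2% and 51.3% changed in these 3 comparisons, and 26.5% fell in the last. The call of Fadd, near the threshold, was not put through the alternative settings. The fall in FFA-SIN against FFA was in Birc3, an inhibitor of apoptosis, from 9.4 to 7.67 FPKM (log2 fold change -0.26 ± 0.04, limma adjusted p = 0.00126). Cflar, the catalytically inactive relative that restrains caspase-8, fell with fatty acids from 5.78 to 4.92 FPKM (-0.20 ± 0.03, adjusted p = 0.00183). So did the deubiquitinase Cyld, from 6.53 to 5.44 FPKM (adjusted p = 0.0008), while the adaptor Tradd rose from 14.9 to 17 FPKM (adjusted p = 0.00627). Casp6, an apoptotic caspase, rose with fatty acids from 3.93 to 4.66 FPKM (0.20 ± 0.04, adjusted p = 0.00644) and stood at 4.67 FPKM in FFA-SIN.

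Interferon-induced GTPases, some of which help expose bacterial lipopolysaccharide to caspase-11, were mostly low: 3 of 11 listed genes passed the filter. Gbp9 fell from 9.7 to 6.67 FPKM with fatty acids (log2 fold change -0.48 ± 0.04, limma adjusted p = 1.43e-05) and rose to 7.62 FPKM with sinomenine (adjusted p = 0.00827), and Irgm1 rose with sinomenine from 14.7 to 16.9 FPKM (adjusted p = 0.000346). Of 13 membrane repair genes of the ESCRT-III list, which can remove gasdermin pores, 3 rose and 2 fell in FFA against NC, and 3 rose and 3 fell in FFA-SIN against FFA. Examples are Chmp2a, which fell with sinomenine from 86.1 to 71.6 FPKM (log2 fold change -0.26 ± 0.03, limma adjusted p = 0.000112), and Chmp4c, which rose from 14 to 16.8 FPKM (0.24 ± 0.03, adjusted p = 0.000448). The shares of all tested genes that changed were 37.5% and 31.2%, and the first count of the list is close to its share. Some of the list's calls were lost in some alternative settings. They include Chmp2a and Chmp4c in FFA against NC, and Chmp1a and Chmp2b in FFA-SIN against FFA.

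The genes whose levels ran closest to Gsdmd over the 9 libraries were Tbc1d2b, Arhgap27 and Pilra, of 6985 candidate genes (mean level 5 FPKM or more). The measure was the root mean square distance between log2(FPKM + 1) values centred on each gene's mean: 0.0167, 0.0281 and 0.0307, against 0.269 for Gsdmd's own spread about its mean. Closest to Casp1 were Net1, Fkbp5 and C1s1 (0.0218, 0.0246 and 0.0269), and closest to Casp4 were Styk1, Cd44 and Wdyhv1 (0.0516, 0.0564 and 0.0565). Casp8 lay closest to S100a1, Prdx1 and Mtpn (0.0337, 0.0347 and 0.0359), and Il18 to Zmynd19, Micall2 and Jund (0.0838, 0.0967 and 0.099). With 3 groups and this many genes such neighbours are a description of levels.

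The label of the cells was checked against markers, since myeloid cells are the usual source of these genes. Of 10 hepatocyte markers 9 passed the filter, with summed levels of 1244 to 1265 FPKM in NC, 1740 to 1744 in FFA and 2390 to 2413 in FFA-SIN, and Ahsg had reads in 1 library only. In FFA-SIN against NC 5 of these 9 rose and 2 fell, beside 24.7% and 26.5% of all tested genes. Alb, Trf and Ttr carried the sum (Alb rose from 198 to 271 and 555 FPKM), while the transcription factor gene Hnf4a fell from 131 to 118 and 104 FPKM (limma adjusted p = 0.000169 and 8.14e-05) and Apoa1 fell with sinomenine from 3.57 to 2.58 FPKM (adjusted p = 0.00554). Of 12 myeloid markers 9 were in the table, and 6 of these were under 1 FPKM in every library, among them Ptprc (CD45) at 0.00484 to 0.0187 FPKM and Itgam at 0.237 to 0.719 FPKM. Their summed level, nearly all from Cd14, was 699 to 717 FPKM in NC, 629 to 636 in FFA and 455 to 476 in FFA-SIN, falling from group to group as Gsdmd did. Cd14, an endotoxin co-receptor that hepatocytes can also make, fell from 697 to 625 and 458 FPKM (limma adjusted p = 0.000461 and 6.39e-07), and Lyz2 fell from 3.93 to 2.57 and 1.67 FPKM (adjusted p = 0.00396 and 0.00954). Cd68, the third tested marker, was 2.19, 2.21 and 2.5 FPKM and passed in no comparison, and Csf1r, below the filter, was 0.0193, 0.0585 and 0.141 FPKM. Of 8 stellate cell or fibroblast markers 7 were under 1 FPKM in every library, with summed levels of 9.98 to 10.3 FPKM in NC, 5.73 to 6.71 in FFA and 3.24 to 3.38 in FFA-SIN, nearly all from Des. All 6 endothelial markers in the table were under 1 FPKM (summed 0.226 to 0.566 FPKM). Of 7 cholangiocyte markers 5 passed the filter, led by Krt19, with summed levels of 1867 to 1940 FPKM in NC, 1777 to 1797 in FFA and 1580 to 1599 in FFA-SIN. In FFA-SIN against NC Krt19 and Krt7 fell, while Sox9 rose from 12.6 to 27.9 FPKM and Spp1 from 402 to 503 FPKM (limma adjusted p = 2.82e-07 and 1.2e-06). The part of these shifts in the results for the inflammasome genes was not tested.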

How the data were processed

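The authors deposited 1 table of 30350 genes and 9 libraries with no unit in its header. The values were taken as FPKM, as computed by the authors: low values were whole multiples of a step that falls with gene length. The submitters' processing notes name Trimmomatic, HISAT2 and GRCm39, and per the labels' protocols RNA with an integrity number of at least 7 went into TruSeq stranded libraries. Versions, counting tool, annotation and strand setting are not stated there.

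Depth was worked out from low values (under 0.5 FPKM), using their most frequent ratios across libraries and GENCODE vM21 exon lengths, which fitted 82.1% of 8024 low genes. It was 58862534 to 64460028 reads in NC, 43201346 to 67707660 in FFA and 57912281 to 71391844 in FFA-SIN. With it all 1022 values above 0 of the listed genes were whole reads within 0.01. Of values from 1 to 9 reads 73.1% were even, against 50% of much larger ones, so both ends of a fragment may count and reads are not independent molecules.

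Symbols were found for 28734 genes (94.7%). A gene entered the test if its mean level reached 1 FPKM (11659 genes). The test was limma 3.58.1 (R 4.3.3) applied to log2(FPKM + 1), all libraries in 1 fit with a mean per group and a variance trend, two-sided, at an adjusted p of 0.05. The 3 members below the filter were compared by exact permutation. The fit was tested on simulated data. No 2 libraries were identical (0 pairs). Sequences are from RefSeq. Python 3.11.15 and matplotlib 3.10.9 were used.

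The members and lists were chosen with earlier results of these data known. The text names all members, and from each list up to 4 further tested genes with the smallest adjusted p over the comparisons. It also names, per tested member, the 3 closest genes. Not all of these are described, and some listed genes are not reported here. Nlrc4, Naip2, Aim2, Nlrp6, Fadd and Il18r1, the markers given by name and the examples within these groups were chosen after their values were seen. Alternatives were other pseudocounts, filters and scalings, fits of the groups compared only, a replicate block and leaving out each library.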

Additional observations from a re-analysis of the deposited data

How the results depend on the processing

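For the 5 tested members in 3 comparisons, 12 of 15 results kept their direction and side of the threshold in all 17 alternatives. The other 3 were Casp1 in FFA against NC and Casp4 in FFA-SIN against FFA, both given with their values above, and Il18 in FFA-SIN against FFA. The last turned sign, with no call, without FFA replicate 2 (log2 fold change 0.02) and without FFA-SIN replicate 2 (0.01), within a leave-one-out range of -0.16 to 0.02. Over the alternatives the adjusted p of Gsdmd was 7.52e-06 to 0.00016 in FFA against NC and 7.9e-07 to 1.65e-05 in FFA-SIN against FFA. For Casp4 and Il18 in FFA against NC it reached 0.0458 and 0.0413.

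Leaving out 1 library at a time, 3 members changed in FFA against NC each time, 2 to 3 in FFA-SIN against FFA and 5 in FFA-SIN against NC. The genes called in all were 3605 to 4261, 2961 to 3623 and 5330 to 5973. Same-numbered libraries deviated together little (r from -0.0146 to 0.174, above 0.1 in 1 of 9 pairs). Such correlations cannot settle whether they were handled together, and the main fit did not pair them. With replicate number as a block, 3, 3 and 5 members and 4338, 3607 and 6006 genes were called. Of 79 calls in other genes named by the rule or beside it, 67 held in every alternative and 12 were lost in some, those of Il18bp, Irgm1, Chmp2a, Chmp4c and Nlrp6 in FFA against NC among them. Depth limits what can be said of Nlrp3, Pycard and Il1b, not of Gsdmd.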
